A study of Mus musculus with 16 samples.

Results

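The 10 genes described here encode the tyrosine kinase SRC and proteins that tie integrins, the kinase and the cell membrane to actin filaments: Src, Bcar3, Cass4, Pxn, Tln1, Vcl, Gsn, Flnc, Ezr and Rai14. They were chosen by name, with earlier results of these data known. All 10 were found among the 20490 genes of the deposited table. Messenger RNA was sequenced from RAW264.7, a mouse macrophage line that serves as an osteoclast precursor, given vesicles of PC3M, a metastatic human prostate cancer line. After 12 h of attachment the cells of all groups, grown in MEM with fetal bovine serum, received phosphate-buffered saline (PBS), recombinant mouse GST-RANKL at 10 ng/mL (RANKL), PC3M extracellular vesicles at 30 µg/mL (EV), or both agents (EV+RANKL). Each treatment was read after 48 h and after 72 h in 2 libraries, which gives 8 groups and 16 libraries of 1 cell line. Levels are in RPKM, reads scaled to transcript length and library size, and group means carry the standard deviation of 2 libraries.

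An osteoclast resorbs bone inside a sealed ring of podosomes, dot-like adhesions with an actin core, a rim of integrin adaptors and a coat of kinases and linkers. SRC phosphorylates adaptors at these adhesions, and mice without it have osteoclasts that form no ruffled border and resorb poorly. Talin and vinculin couple integrins to actin, gelsolin severs and caps filaments, filamins crosslink them, and ezrin joins filaments to the plasma membrane.

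Macrophage markers were present in every library, with Lyz2, Cd68 and Csf1r far above the filter and Mertk at no more than 0.863 RPKM. The sum of the 7 listed was 7165 to 7716 RPKM with PBS at 48 h and 5600 to 6437 RPKM with PBS at 72 h. It was 1930 to 2403 RPKM with EV+RANKL at 72 h, and Lyz2 alone ranged from 719 to 6084 RPKM. For EV+RANKL against PBS at 72 h limma called Fcgr1 and Lyz2 lower and Csf1r higher, of 6 tested. All tested genes passed at 22.1% lower and 19.9% higher there. The summed level of 9 osteoclast markers was 17.5 to 19.4 RPKM over the PBS libraries of both times and reached 1096 to 1603 RPKM with EV+RANKL at 72 h, with Calcr at no more than 0.133 RPKM in any library. Of 9 listed epithelial or carcinoma markers 4 were in the table and none exceeded 0.0499 RPKM, and no stromal, bone-forming or muscle marker exceeded 0.633 RPKM. Of the listed markers of other blood cells only Pf4, at up to 6.30 RPKM, reached the filter. The estimated depth was at least 18.4 M reads (M for mega) in every library, with a median of 19.2 M. In 5 libraries of 72 h, which are replicate 2 of RANKL and both libraries of EV and of EV+RANKL, the share of RPKM in genes for ribosomal proteins was 10.6% to 11.0%, against 7.85% to 9.41% in the other 11. In the EV and EV+RANKL groups at 72 h this share and the treatment cannot be told apart.

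The levels of the ring genes followed 4 patterns. Src, Bcar3, Rai14, Gsn, Flnc and Vcl were highest with EV+RANKL at 72 h, Ezr was lowest there, and Pxn and Tln1 stayed within a narrow range of levels in all groups. Cass4 was highest with RANKL alone at 48 h and lowest with EV+RANKL. All 10 genes passed the filter of at least 1 RPKM in at least 2 libraries, with 10365 genes tested by limma and a threshold of 0.05 on the adjusted p. Flnc was below that minimum in both PBS groups and with RANKL at 48 h, so it passed only through the groups where it was high. The counts of called genes below include Flnc and carry this limit. Since the 10 genes were chosen with earlier results known, their counts beside the share of all genes are a description and no test.

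**Figure D1:**
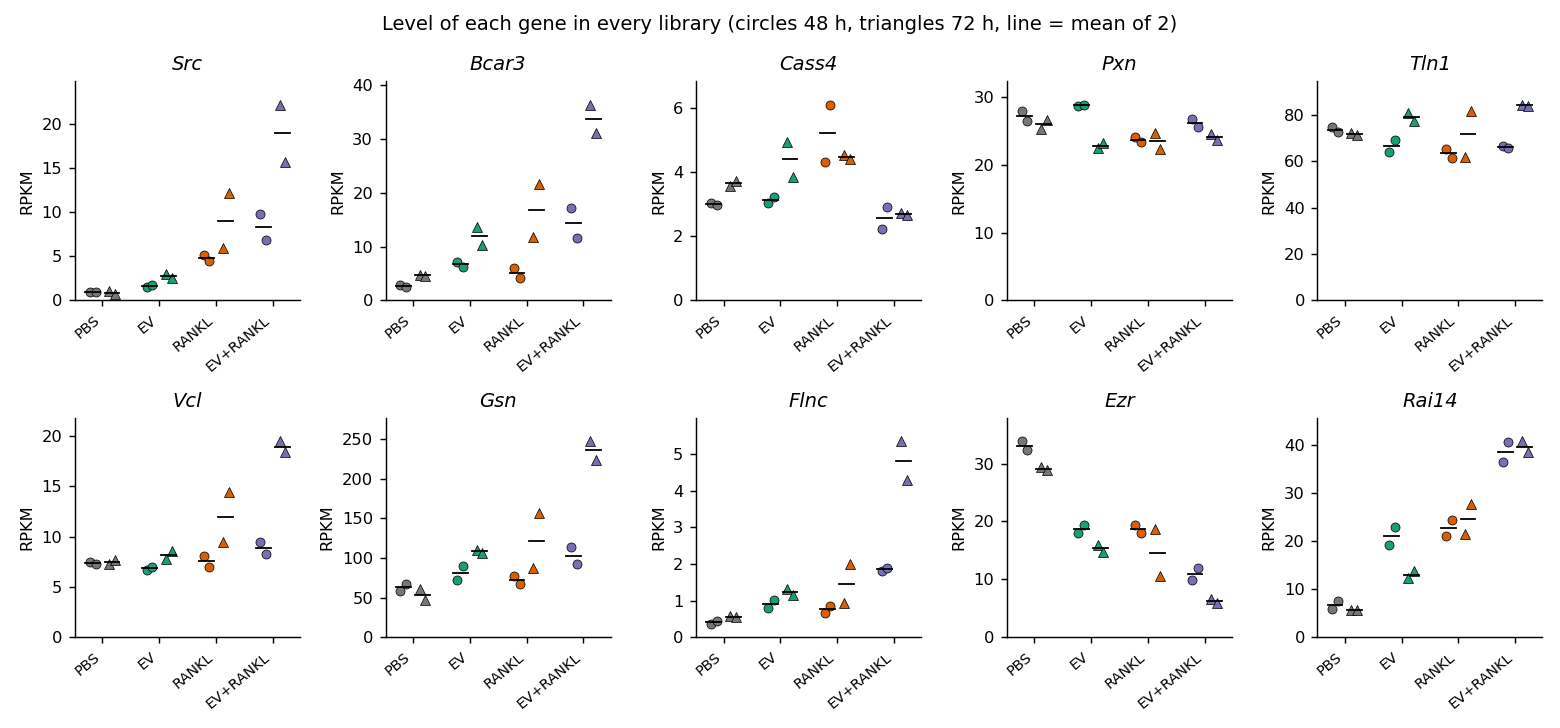
RPKM of the 10 genes in each of the 16 libraries, by treatment. Circles are 48 h, triangles 72 h and lines the mean of 2 libraries. With EV+RANKL at 72 h Src reached 22.2 and 15.7 RPKM and Ezr 6.52 and 5.94 RPKM, while Pxn lay between 22.3 and 28.9 RPKM in all libraries.

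RANKL against PBS asks what the differentiation signal does alone. At 48 h 3 of the 10 genes rose (Src, Rai14, Cass4) and 1 fell (Ezr), where 14.8% of all tested genes passed, 6.47% higher and 8.29% lower. At 72 h 6 rose (Src, Bcar3, Vcl, Gsn, Flnc, Rai14) and Ezr fell, where 18.9% of all genes passed, 9.73% higher and 9.13% lower. EV against PBS asks what the vesicles do alone: at 48 h only Rai14 rose, with 1.29% of all genes passing (0.608% higher, 0.685% lower). At 72 h of EV Src, Bcar3, Gsn, Flnc and Rai14 rose and Ezr fell, with 18.3% passing (10.4% higher, 7.83% lower). The median change of the 10 genes was 0.27 for RANKL and 0.22 for EV at 48 h, and 0.61 and 0.36 at 72 h, on the log2(RPKM + 1) scale. The medians over all tested genes in these comparisons were 0.06, 0.03, -0.000207 and 0.03. Both comparisons share the PBS libraries of their time. Fitted on the libraries of 1 time alone, limma called 8 of the 10 genes for RANKL and 4 for EV at 48 h, and 1 for EV at 72 h. The share of all genes passing in those fits is not reported here.

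EV+RANKL against RANKL asks what vesicles add to the signal. At 48 h Bcar3 and Rai14 rose and Cass4 fell, 3 of 10 genes where 0.434% of all genes passed (0.27% higher, 0.164% lower). At 72 h Vcl, Gsn, Flnc and Rai14 rose and Ezr fell, 5 of 10 where 1.83% of all genes passed (1.3% higher, 0.531% lower). These counts rest on the settings of the fit: libraries of 1 time alone gave 5 at 48 h and 0 at 72 h, and testing without the filter gave 0 and 2. For these settings too the share of all genes passing is not reported here. Against EV alone, EV+RANKL raised 4 genes and lowered 1 at 48 h, where 9.53% of all genes passed (3.96% higher, 5.58% lower). At the later time it raised 6 and lowered 2, where 22% passed (9.05% higher, 12.9% lower). Against PBS it raised 5 and lowered 1 at 48 h, where 22.1% passed (11.2% higher, 10.9% lower), and raised 6 and lowered 1 at 72 h, where 41.9% passed (19.9% higher, 22.1% lower). None of the 10 genes passed limma's test of the interaction of both agents at either time, for which 0.00965% of genes passed. Without adjustment 2 of the 10 had an interaction p under 0.05 at 48 h and 3 at 72 h. The share of all genes at that unadjusted cut is not reported here, so these counts have no background. The summed osteoclast markers also differed between these groups. At 48 h the sum was 83.7 to 92.4 RPKM with EV, 280 to 298 RPKM with RANKL and 489 to 634 RPKM with EV+RANKL. At 72 h it was 97.0 to 126, 455 to 835 and 1096 to 1603 RPKM in the same order. Of the 8 osteoclast markers tested, limma called none for EV+RANKL against RANKL at 48 h and only Acp5, higher, at 72 h. The part of these markers in the changes of the ring genes was not tested. In bulk RNA fewer cells of a type and less RNA per cell cannot be told apart.

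**Figure D2:**
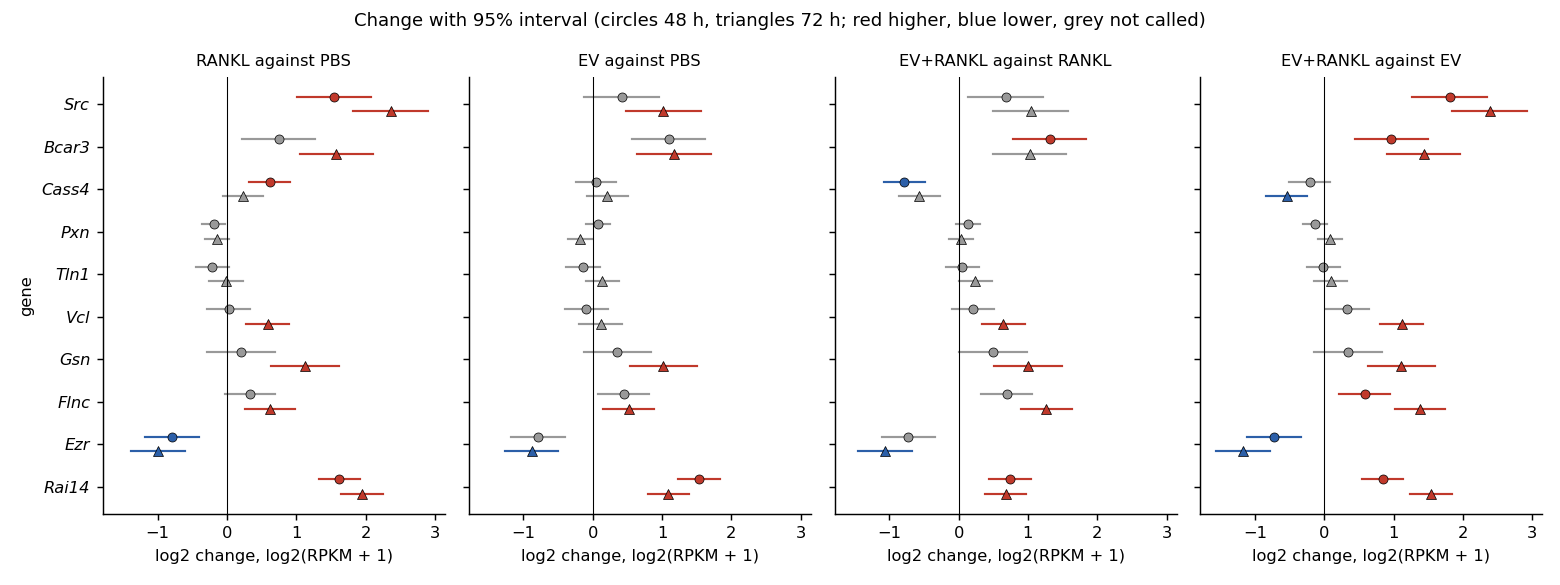
Change of each gene on the log2(RPKM + 1) scale with its 95% interval in 4 treatment comparisons, circles 48 h and triangles 72 h. Red marks genes called higher and blue genes called lower by limma at an adjusted p under 0.05. For EV+RANKL against RANKL at 72 h the intervals of Src (0.50 to 1.58) and Bcar3 (0.50 to 1.56) lie above 0 without an adjusted call.

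Promoter windows are shown for 4 members whose levels moved differently, Src and Bcar3 as genes that rose with both agents, Cass4 as the adaptor lowest with both, and Ezr as the gene that was lower in every treatment comparison. RefSeq windows of GRCm38.p6, from 250 bases before to 50 bases after the start, were found for 9 of the 10 genes, in 14 windows. Each is written 5′ to 3′ on the strand of its gene. The Src window is chr2:157424043-157424342 on the plus strand, and Bcar3 has starts at chr3:122419507-122419806 and chr3:122483319-122483618, both plus. The Cass4 window is chr2:172393394-172393693, plus, and the Ezr window is chr17:6782731-6783030, minus. Capitals mark matches on either strand to 4 motifs chosen after the values were seen, the AP-1 site TGANTCA, the NFAT core GGAAA, and the E-boxes CATGTG and CACGTG, none of which overlap in these windows.
Src: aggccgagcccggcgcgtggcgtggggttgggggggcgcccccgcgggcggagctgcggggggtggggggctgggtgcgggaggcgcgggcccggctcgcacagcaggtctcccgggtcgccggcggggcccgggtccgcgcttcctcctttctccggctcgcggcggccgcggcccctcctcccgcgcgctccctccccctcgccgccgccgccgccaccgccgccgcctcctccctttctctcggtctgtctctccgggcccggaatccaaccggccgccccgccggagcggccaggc
Bcar3 first start: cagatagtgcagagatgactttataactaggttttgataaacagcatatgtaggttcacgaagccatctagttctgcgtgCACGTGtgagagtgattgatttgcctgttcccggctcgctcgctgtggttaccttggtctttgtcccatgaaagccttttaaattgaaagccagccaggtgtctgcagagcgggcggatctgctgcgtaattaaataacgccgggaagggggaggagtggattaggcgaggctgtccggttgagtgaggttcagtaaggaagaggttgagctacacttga
Bcar3 second start: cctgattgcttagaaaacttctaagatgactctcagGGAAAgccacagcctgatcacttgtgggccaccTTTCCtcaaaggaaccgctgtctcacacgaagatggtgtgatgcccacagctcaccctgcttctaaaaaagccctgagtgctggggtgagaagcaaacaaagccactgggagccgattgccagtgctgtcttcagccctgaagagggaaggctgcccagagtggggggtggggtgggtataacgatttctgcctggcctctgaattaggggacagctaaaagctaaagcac
Cass4: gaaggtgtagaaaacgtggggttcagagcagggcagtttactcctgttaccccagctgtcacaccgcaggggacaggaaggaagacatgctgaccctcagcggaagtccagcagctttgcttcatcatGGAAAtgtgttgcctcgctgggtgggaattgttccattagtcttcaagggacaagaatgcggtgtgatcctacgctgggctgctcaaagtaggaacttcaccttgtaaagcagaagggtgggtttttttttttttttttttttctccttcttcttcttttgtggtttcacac
Ezr: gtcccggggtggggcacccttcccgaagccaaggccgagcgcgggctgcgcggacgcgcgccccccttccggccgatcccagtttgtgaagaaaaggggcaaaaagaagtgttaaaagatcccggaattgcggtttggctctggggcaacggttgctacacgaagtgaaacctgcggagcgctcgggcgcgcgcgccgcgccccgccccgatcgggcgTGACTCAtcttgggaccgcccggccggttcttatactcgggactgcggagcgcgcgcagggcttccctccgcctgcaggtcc
The Src window is 82.3% G or C with 47 CpG dinucleotides and holds none of the 4 motifs, where the median over all windows is 52.7% G or C. The first Bcar3 start has 1 CACGTG, an E-box that 7.2% of 32851 mouse windows hold. Its second start has 2 NFAT cores and the Cass4 window 1, a sequence found in 61.3% of windows. The Ezr window has the only AP-1 match among the 14, TGACTCA at 32 bases before the start, and 7.8% of all windows hold such a match. These matches are descriptions of letters, and no binding was measured.

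Src, the kinase, showed the widest range of the 10 genes as the ratio of its highest to its lowest library. With PBS it stood at 1.01 and 0.953 RPKM at 48 h and at 1.02 and 0.714 RPKM at 72 h, and with EV at 1.51 and 1.80 RPKM and at 2.99 and 2.57 RPKM. With RANKL it stood at 5.18 and 4.43 RPKM at 48 h and at 5.94 and 12.2 RPKM at 72 h, and with EV+RANKL at 9.86 and 6.91 RPKM and at 22.2 and 15.7 RPKM. Both PBS groups lay below every other group, and EV+RANKL at 72 h lay above all others. In the order of group means, the PBS groups overlapped each other, and EV+RANKL at 48 h overlapped RANKL at 72 h, while all other neighbours were apart.

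Src rose by 1.55 ± 0.25 with RANKL at 48 h (limma adjusted p = 0.00116), a ratio of mean RPKM of 4.88, and by 2.36 ± 0.25 at 72 h (limma adjusted p = 8.7e-05), a ratio of 10.4. Replicate 2 of RANKL at 72 h, one of the 5 libraries with a high ribosomal share, held 12.2 RPKM against 5.94 RPKM in replicate 1, a difference larger than that of 99.0% of genes between these libraries. Without it the change was 1.90 (limma adjusted p = 0.000625). EV alone gave 0.42 ± 0.25 at 48 h, which did not pass (limma adjusted p = 0.622), and Src rose by 1.02 ± 0.25 at 72 h (limma adjusted p = 0.0188). That call was lost without replicate 1 of EV (limma adjusted p = 0.113) or replicate 2 of PBS (limma adjusted p = 0.158) at 72 h. EV+RANKL over PBS reached 3.40 ± 0.25 at 72 h (limma adjusted p = 1.7e-06), 21.8 times the PBS mean, and this was called under all 16 omissions of 1 library.

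Between RANKL and EV+RANKL, Src did not pass the threshold. The difference was 0.68, with a 95% interval of 0.14 to 1.22, at 48 h (limma adjusted p = 0.378) and 1.04, with an interval of 0.50 to 1.58, at 72 h (limma adjusted p = 0.0529). The libraries did not overlap at either time. Without replicate 2 of RANKL at 72 h the difference was 1.504 and passed (limma adjusted p = 0.00139), while without replicate 1 of RANKL it was 0.58 (limma adjusted p = 0.468) and without replicate 1 of EV+RANKL at 72 h it was 0.80 (limma adjusted p = 0.493).

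Bcar3 and Cass4 belong to the CAS adaptor system, in which CAS proteins are SRC substrates and BCAR3 is an SH2-domain partner that binds them. The pair moved differently. Bcar3 stood at 2.86 and 2.41 RPKM with PBS, 6.12 and 4.21 RPKM with RANKL, 7.21 and 6.31 RPKM with EV, and 17.1 and 11.6 RPKM with EV+RANKL at 48 h. Bcar3 levels at 72 h were 4.78 and 4.61 RPKM with PBS, 11.8 and 21.7 RPKM with RANKL, 13.6 and 10.3 RPKM with EV, and 36.4 and 31.1 RPKM with EV+RANKL. EV+RANKL lay above the 3 other groups of its time in both replicates, and the EV and RANKL libraries overlapped at 72 h but not at 48 h.

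The rise of Bcar3 from RANKL to EV+RANKL at 48 h was 1.31 ± 0.24 (limma adjusted p = 0.0399), a ratio of 2.78. It was called in 4 of the 16 omissions of 1 library, and without replicate 1 of EV+RANKL it was 1.05 (limma adjusted p = 0.453). At 72 h the same difference was 1.03 ± 0.24 and missed the threshold (limma adjusted p = 0.0529). It passed at 1.44 (limma adjusted p = 0.00279) without replicate 2 of RANKL, in which Bcar3 was 0.82 higher on the log2(RPKM + 1) scale than in replicate 1. Without replicate 1 of RANKL it was 0.61 (limma adjusted p = 0.482). Over PBS, each agent alone missed the threshold at 48 h, with 0.75 ± 0.24 for RANKL (limma adjusted p = 0.0596) and 1.09 ± 0.24 for EV (limma adjusted p = 0.0525). Both passed at 72 h, with 1.58 ± 0.24 for RANKL (limma adjusted p = 0.00113) and 1.18 ± 0.24 for EV (limma adjusted p = 0.0126), the latter lost without replicate 1 of EV (limma adjusted p = 0.0969) or replicate 2 of PBS (limma adjusted p = 0.115) at 72 h. EV+RANKL over PBS was 2.06 ± 0.24 at 48 h and 2.61 ± 0.24 at 72 h, called under every omission of 1 library.

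Cass4, a CAS family protein, stood at 3.03 and 2.97 RPKM with PBS and at 4.32 and 6.12 RPKM with RANKL at 48 h. EV gave 3.06 and 3.22 RPKM and EV+RANKL 2.25 and 2.93 RPKM at that time. Cass4 levels at 72 h were 3.56 and 3.74 RPKM with PBS, 4.53 and 4.40 RPKM with RANKL, 4.96 and 3.86 RPKM with EV and 2.72 and 2.65 RPKM with EV+RANKL. At both times the lowest levels were those of EV+RANKL, below each agent alone.

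Cass4 rose by 0.62 ± 0.14 with RANKL at 48 h (limma adjusted p = 0.0082) and was lower by 0.79 ± 0.14, a log2 change of -0.79, with EV+RANKL than with RANKL (limma adjusted p = 0.0291). The rise was lost without replicate 2 of RANKL (0.41, limma adjusted p = 0.108) or replicate 2 of PBS (limma adjusted p = 0.0599). The fall was lost in 5 of 16 omissions, with a change of -0.65 (limma adjusted p = 0.361) without replicate 1 of EV+RANKL and -0.57 (limma adjusted p = 0.202) without replicate 2 of RANKL. At 72 h the fall was -0.57 ± 0.14 against RANKL (limma adjusted p = 0.053) (-0.58 and limma adjusted p = 0.0373 without replicate 2 of RANKL, -0.55 and limma adjusted p = 0.384 without replicate 1) and -0.55 ± 0.14 against EV, which passed (limma adjusted p = 0.0121). The interaction terms were -0.83 ± 0.19 at 48 h and -0.78 ± 0.19 at 72 h, and neither passed (limma adjusted p = 0.499 and 0.252). Bcar1, the p130CAS gene of the same family, rose by 1.17 ± 0.26 with RANKL at 48 h (limma adjusted p = 0.00824) but did not pass at 72 h (0.34, limma adjusted p = 0.397), where the RANKL libraries lay within the PBS range, and the share of Cass4 in the summed RPKM of Cass4, Bcar1 and Nedd9 went from 79.7% to 80.6% with PBS to 36.6% to 40.4% with EV+RANKL at 48 h. This share and those given for other gene families were chosen for display after the values were seen.

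Pxn, paxillin, the scaffold that gathers kinases and adaptors at integrin adhesions, had the smallest range of the 10 genes as the ratio of its highest to its lowest library. Its level over all 16 libraries was 22.3 to 28.9 RPKM. Its change lay between -0.19 and 0.14 in the treatment comparisons, none of which passed. With RANKL at 48 h it was -0.19, with a 95% interval of -0.37 to -0.02 (limma adjusted p = 0.13). The 1 call for Pxn was a fall of 0.32 on the log2 scale in the EV groups between 48 h (28.6 and 28.9 RPKM) and 72 h (22.4 and 23.2 RPKM; limma adjusted p = 0.011). That call was lost in 3 of 16 omissions, of either EV library of 48 h or replicate 1 of EV at 72 h.

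Tln1, talin, which activates integrins and binds actin, was abundant in every group, at 61.5 to 84.5 RPKM over the 16 libraries. No treatment comparison passed for it in the fit of all libraries. Without replicate 2 of RANKL at 72 h the difference of EV+RANKL over RANKL was 0.43 and passed (limma adjusted p = 0.00783), and without replicate 1 it was 0.04 (limma adjusted p = 0.877). Between 48 h and 72 h of EV+RANKL it rose from 66.5 and 65.6 RPKM to 84.5 and 83.7 RPKM, a change of 0.34 ± 0.11 (limma adjusted p = 0.0271) that was lost without any 1 of these 4 libraries (limma adjusted p = 0.0797 to 0.126). Tln1 made up 98.7% to 99.2% of the talin RPKM in all libraries, Tln2 the rest. With RANKL at 72 h its libraries differed widely, at 62.0 and 81.6 RPKM.

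Vcl, vinculin, which reinforces the talin link, showed its change late. At 48 h it stood at 7.45 and 7.28 RPKM with PBS, 6.70 and 6.97 RPKM with EV, 8.10 and 6.96 RPKM with RANKL and 9.47 and 8.23 RPKM with EV+RANKL, and no comparison between these groups passed. At 72 h it stood at 7.30 and 7.64 RPKM with PBS, 7.81 and 8.58 RPKM with EV, 9.51 and 14.4 RPKM with RANKL and 19.5 and 18.4 RPKM with EV+RANKL. EV+RANKL at 72 h lay above all other groups, and EV alone at 72 h did not pass against PBS (0.12, limma adjusted p = 0.574). Against PBS, EV+RANKL at 72 h was 1.23 ± 0.14 higher (limma adjusted p = 4.34e-05), a ratio of 2.53, and was called under all 16 omissions. The rise over RANKL, 0.65 ± 0.14 (limma adjusted p = 0.0407), was called in 3 of 16. Without replicate 1 of RANKL it was 0.37 (limma adjusted p = 0.374), and without replicate 1 of EV+RANKL 0.60 (limma adjusted p = 0.37). The rise with RANKL alone, 0.59 ± 0.14 (limma adjusted p = 0.0133), was lost at 0.31 without replicate 2 of RANKL (limma adjusted p = 0.117) and without either PBS library of 72 h.

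Gsn, gelsolin, the calcium-regulated severing and capping protein, reached the highest level of the 10 genes. At 48 h it stood at 58.0 and 67.4 RPKM with PBS, 71.6 and 90.0 RPKM with EV, 76.9 and 67.6 RPKM with RANKL and 114 and 91.8 RPKM with EV+RANKL. At 72 h it stood at 60.3 and 46.4 RPKM with PBS, 110 and 106 RPKM with EV, 87.0 and 157 RPKM with RANKL and 247 and 224 RPKM with EV+RANKL. The EV+RANKL libraries of 72 h were above all others, and the EV libraries lay between the RANKL replicates of that time. Gsn rose with each agent at 72 h, by 1.13 ± 0.22 with RANKL (limma adjusted p = 0.00467) and 1.02 ± 0.22 with EV (limma adjusted p = 0.0144), and by 2.13 ± 0.22 with both (limma adjusted p = 2.35e-05). The call for RANKL held without replicate 2 of that group at 0.71 (limma adjusted p = 0.0437), and the call for EV was lost without replicate 1 of EV (limma adjusted p = 0.0886) or replicate 2 of PBS (limma adjusted p = 0.147) at 72 h. EV+RANKL exceeded RANKL by 1.003 ± 0.22 (limma adjusted p = 0.0432), a call kept in 5 of 16 omissions. It was 0.58 without replicate 1 of RANKL (limma adjusted p = 0.401), and the call was also lost without replicate 1 of EV+RANKL (limma adjusted p = 0.385).

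The share of Gsn in the summed RPKM of its family (Gsn, Capg, Svil, Scin, Avil and Vil1) was 22.8% to 26.3% with PBS at 48 h and 43.8% to 45.9% with EV+RANKL at 72 h. Scin, which encodes the related severing protein adseverin and is named here after its values were seen, stood at 0.0356 to 0.144 RPKM with PBS and 1.17 to 1.29 RPKM with RANKL at 48 h, passed the filter only through the groups with RANKL, and reached 3.46 ± 1.0 RPKM with EV+RANKL at 72 h, far below Gsn on the RPKM scale.

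Flnc, the muscle-type filamin, had the lowest level of the 10 genes with PBS. At 48 h it stood at 0.359 and 0.444 RPKM with PBS, 0.799 and 1.02 RPKM with EV, 0.672 and 0.859 RPKM with RANKL and 1.81 and 1.88 RPKM with EV+RANKL. At 72 h it stood at 0.587 and 0.538 RPKM with PBS, 1.31 and 1.16 RPKM with EV, 0.935 and 1.99 RPKM with RANKL and 5.34 and 4.29 RPKM with EV+RANKL. At each time both EV+RANKL libraries lay above all others. With its length the lowest value corresponds to about 60.9 reads. The change over PBS was 1.02 ± 0.17 at 48 h (limma adjusted p = 0.000707) and 1.89 ± 0.17 at 72 h (limma adjusted p = 6.33e-06), ratios of mean RPKM of 4.595 and 8.56, and the log2(RPKM + 1) scale understates such changes at low levels.

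Flnc entered the test only through the groups where it was high. The fit of 72 h libraries alone called none of the 10 genes for EV+RANKL against RANKL. In the fit of all libraries Flnc rose over RANKL by 1.27 ± 0.17 with EV+RANKL at 72 h (limma adjusted p = 0.00532). The call was lost in 1 of 16 omissions, that of replicate 1 of EV+RANKL (1.14, limma adjusted p = 0.128). The rise with EV alone at 72 h, 0.52 ± 0.17 (limma adjusted p = 0.0491), was kept in 2 of 16, and that with RANKL alone, 0.62 ± 0.17 (limma adjusted p = 0.0214), was lost at 0.31 without replicate 2 of RANKL (limma adjusted p = 0.207) and without either PBS library of 72 h, and was 0.94 without replicate 1 of RANKL (limma adjusted p = 0.000568). Flna, which encodes a related filamin and is named after its values were seen, fell by 0.48 ± 0.12 with RANKL at 48 h (limma adjusted p = 0.0174).

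Ezr, ezrin, a linker of the ERM group between actin and membrane proteins, was lower in the first-named group of all 10 treatment comparisons and passed in 8 of them. At 48 h it stood at 33.9 and 32.3 RPKM with PBS, 18.1 and 19.4 RPKM with EV, 19.3 and 18.0 RPKM with RANKL and 9.86 and 12.0 RPKM with EV+RANKL. At 72 h it stood at 29.3 and 28.9 RPKM with PBS, 16.0 and 14.7 RPKM with EV, 18.6 and 10.6 RPKM with RANKL and 6.52 and 5.94 RPKM with EV+RANKL. EV and RANKL libraries overlapped each other at both times, and EV+RANKL lay below all other groups of its time. Ezr fell with RANKL by 0.79 ± 0.18 at 48 h (limma adjusted p = 0.00952) and 0.99 ± 0.18 at 72 h (limma adjusted p = 0.0026). The fall at 72 h was 0.62, a log2 change of -0.62, without replicate 2 of RANKL (limma adjusted p = 0.0101). EV gave -0.79 ± 0.18 at 48 h, which missed the threshold (limma adjusted p = 0.0546), and -0.88 ± 0.18 at 72 h, which passed (limma adjusted p = 0.012) but not without replicate 1 of EV (limma adjusted p = 0.0714) or replicate 2 of PBS (limma adjusted p = 0.111). With both agents at 72 h the change was -2.06 ± 0.18 (limma adjusted p = 5.6e-06), a ratio of 0.214, called under all 16 omissions.

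The call for Ezr with RANKL at 48 h was lost without either PBS library of 48 h or replicate 2 of RANKL (limma adjusted p = 0.0529 to 0.0756). Between RANKL and EV+RANKL the change was -0.72 ± 0.18 at 48 h (limma adjusted p = 0.104) and -1.06 ± 0.18 at 72 h (limma adjusted p = 0.0221), the latter lost in 3 of 16 omissions and -1.12 without replicate 1 of EV+RANKL (limma adjusted p = 0.178). Without replicate 2 of RANKL, in which Ezr was 0.76 lower on the log2(RPKM + 1) scale than in replicate 1, it was -1.44, and without replicate 1 of RANKL it was -0.68 (limma adjusted p = 0.0704). Among the ERM genes Msn, moesin, fell by 0.37 ± 0.11 with RANKL at 48 h (limma adjusted p = 0.0448) and remained the larger part, and the share of Ezr in Ezr, Msn and Rdx went from 15.5% to 16.6% with PBS at 48 h to 4.81% to 5.37% with EV+RANKL at 72 h.

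**Figure D3:**
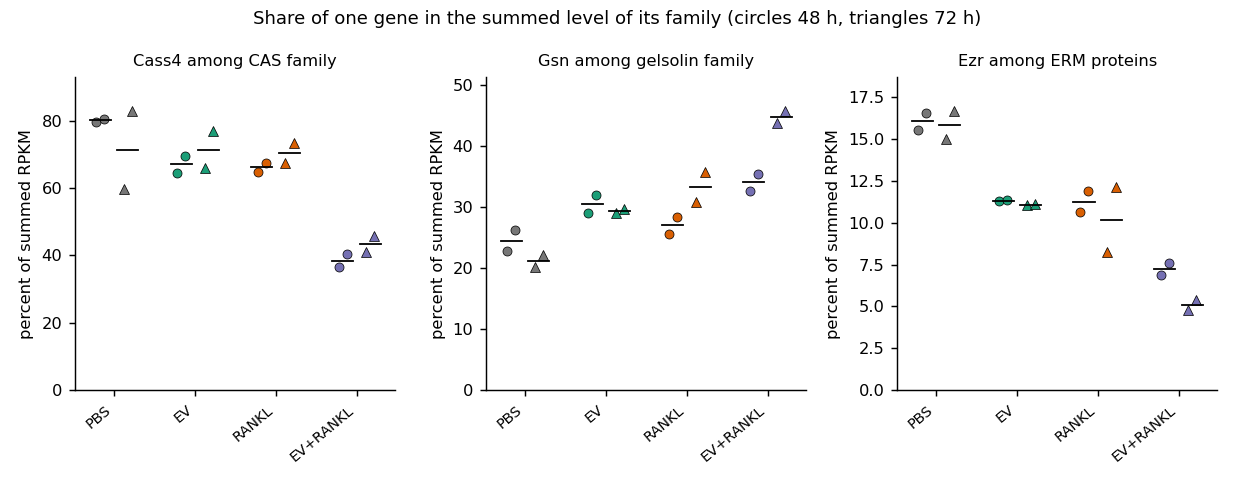
Share of Cass4, Gsn and Ezr in the summed RPKM of their gene families, in percent, for each library (circles 48 h, triangles 72 h, lines the mean of 2). Ezr went from 15.5% to 16.6% with PBS at 48 h to 4.81% to 5.37% with EV+RANKL at 72 h, and Gsn from 22.8% to 26.3% to 43.8% to 45.9%.

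Rai14, also called ankycorbin, an ankyrin repeat protein that localises to cortical actin, was the only member called higher in all 10 treatment comparisons. At 48 h it stood at 5.85 and 7.50 RPKM with PBS, 19.2 and 23.0 RPKM with EV, 20.9 and 24.3 RPKM with RANKL and 36.4 and 40.4 RPKM with EV+RANKL. At 72 h it stood at 5.57 and 5.56 RPKM with PBS, 12.3 and 13.7 RPKM with EV, 21.5 and 27.6 RPKM with RANKL and 40.7 and 38.4 RPKM with EV+RANKL. At 48 h EV and RANKL overlapped, and EV+RANKL was above both at each time. EV alone raised Rai14 by 1.53 ± 0.14 at 48 h (limma adjusted p = 0.000137) and 1.09 ± 0.14 at 72 h (limma adjusted p = 0.00184), and RANKL by 1.62 ± 0.14 (limma adjusted p = 1.7e-05) and 1.95 ± 0.14 (limma adjusted p = 4.79e-06). These 4 calls held under all 16 omissions. With EV alone the level fell between 48 h and 72 h by 0.65 ± 0.14 (limma adjusted p = 0.00617), a call lost without replicate 2 of EV at 48 h or replicate 1 of EV at 72 h (limma adjusted p = 0.0569 to 0.0603).

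The step from RANKL to EV+RANKL raised Rai14 by 0.74 ± 0.14 at 48 h (limma adjusted p = 0.0399) and 0.68 ± 0.14 at 72 h (limma adjusted p = 0.0322). It was called in 8 of 16 omissions at 48 h and in 13 of 16 at 72 h, with 0.82 (limma adjusted p = 0.234) and 0.64 (limma adjusted p = 0.331) without replicate 1 of EV+RANKL of that time. The interaction was -0.79, with a 95% interval of -1.21 to -0.36, at 48 h and did not pass (limma adjusted p = 0.592).

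Between 48 h and 72 h of PBS, limma called none of the 10 genes (0.646% of all genes passed, 0.145% higher and 0.502% lower, and 1 of the 10 had an unadjusted p under 0.05). With RANKL Bcar3 and Vcl rose, where 6.03% of all genes passed (3.45% higher, 2.58% lower). With EV, Bcar3 and Cass4 rose and Pxn and Rai14 fell, where 32.3% passed (17.4% higher, 14.9% lower). With EV+RANKL Src, Bcar3, Tln1, Vcl, Gsn and Flnc rose and Ezr fell, where 38.9% passed (17.4% higher, 21.5% lower). Both calls with RANKL were lost without replicate 2 of RANKL at 72 h, at 1.07 for Bcar3 (limma adjusted p = 0.0656) and 0.30 for Vcl (limma adjusted p = 0.183). With EV the Cass4 call, at 0.38, was lost in 11 of 16 omissions and was 0.23 without replicate 1 of EV at 72 h (limma adjusted p = 0.33). The Bcar3 call with EV was lost without either EV library of 48 h (limma adjusted p = 0.0905 and 0.171) or replicate 1 of EV at 72 h (limma adjusted p = 0.232). The change in the effect of EV+RANKL over PBS from 48 h to 72 h passed for Vcl, Gsn and Flnc, where 9.62% of all genes passed (4.53% higher, 5.08% lower), and missed for Src at 1.18 ± 0.35 (limma adjusted p = 0.0522). For RANKL over PBS, for EV over PBS and for EV+RANKL over RANKL or over EV limma called no member, with 0.0289%, 0.0193%, 0% and 0% of all genes passing. Without adjustment 4, 2, 2 and 4 of the 10 had a p under 0.05 in these tests. For these counts, and for that of PBS between the times, the share of all genes at the unadjusted cut is not reported here.

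Over the 8 group means, which share libraries, depth and treatment, the members are described in sets of 7 and 3, without a sharp border. Vcl with Rai14, both among the 7, had a Pearson's r of 0.58. That was below the r of Tln1, among the 3, with Vcl (0.64) and with Gsn (0.60). Pearson's r among Src, Bcar3, Vcl, Gsn, Flnc and Rai14 was 0.58 to 0.96, and that of each with Ezr was -0.97 to -0.82. With the other members r was -0.61 to 0.27 for Cass4, -0.61 to 0.42 for Pxn and -0.36 to 0.64 for Tln1. Genes outside the set whose 8 group means were most like Src, among 2044 genes compared, were Slc9a3r2, a scaffold that binds ERM proteins (r = 0.994), Ctsk, the collagen-degrading protease of osteoclasts (0.993), Hagh (0.992), Slc9b2 (0.991) and Vsig10 (0.991). For Bcar3 they were Tm4sf19 (0.990), Zc3h3 (0.990), Hmg20b (0.986), Dlg3 (0.983) and Sema4b (0.983).

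Other genes of the same machinery were read from 7 lists holding 100 genes, of which 85 were tested. With RANKL at 48 h 11 of the 85 rose and 18 fell, where 6.47% of all tested genes passed higher and 8.29% lower. With EV at 48 h limma called none higher and 2 lower, Ptpre and Lsp1, where 0.608% and 0.685% of all genes passed. At an unadjusted p under 0.05 there were 6 higher and 12 lower with EV. The share of all genes at that cut is not reported here. At 72 h 17 rose and 9 fell with RANKL, where 9.73% and 9.13% of all genes passed. With EV at 72 h 7 rose and 8 fell, where 10.4% and 7.83% of all genes passed. Only for EV were both shares near those of the lists. Median changes per list, over all 7, lay between -0.12 and 0.11 with RANKL at 48 h.

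Of 15 tested SRC family kinases and SRC regulators, 7 fell and 1 rose with RANKL at 48 h. The phosphatases Ptpra and Ptpre, which can activate SRC by removing its inhibitory phosphate, fell by 0.87 ± 0.10 (limma adjusted p = 0.000156) and 0.87 ± 0.11 (limma adjusted p = 0.00028). Ptpre also fell with EV at 48 h, by 0.56 ± 0.11 (limma adjusted p = 0.0304). The 1 that rose was Abl2, a kinase related to ABL that is named after its values were seen, at 0.46 ± 0.13 (limma adjusted p = 0.0356). At 72 h 5 fell and 2 rose with RANKL.

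Of 10 CAS and paxillin adaptors and partners, 2 rose (Bcar1 and Git1) and 2 fell with RANKL at 48 h. Git1, a paxillin-binding GTPase-activating protein, rose by 0.36 ± 0.09 (limma adjusted p = 0.0154), and its partner Arhgef7 fell by 0.63 ± 0.09 (limma adjusted p = 0.00069). Of 9 integrin-actin links 1 rose and 1 fell: Apbb1ip, which encodes RIAM, a recruiter of talin, rose by 0.36 ± 0.08 (limma adjusted p = 0.0118), and zyxin (Zyx) fell by 0.65 ± 0.18 (limma adjusted p = 0.0285). Fermt3, the blood-cell kindlin, did not pass at -0.20. With EV at 72 h 4 of these 9 rose and 1 fell.

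Of 15 genes of actin nucleation and the podosome core, 1 fell with RANKL at 48 h, Hcls1 at -0.35 ± 0.11 (limma adjusted p = 0.0486), a haematopoietic cortactin relative, while Nck1 (0.31) and Arpc2 (-0.23) did not pass. Among 17 filament severing, crosslinking and bundling genes 3 rose and 5 fell. Fscn1, fascin, which bundles filaments, rose by 1.42 ± 0.22 (limma adjusted p = 0.000889), and Lsp1, a leukocyte actin-binding protein, fell by 1.59 ± 0.28 (limma adjusted p = 0.00208) and with EV by 1.30 ± 0.28 (limma adjusted p = 0.0415).

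Of 6 ERM and membrane linkers, Slc9a3r2 rose by 1.16 ± 0.18 with RANKL at 48 h (limma adjusted p = 0.000785) and Msn fell, while Slc9a3r1 did not pass at -0.29.

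**Figure D4:**
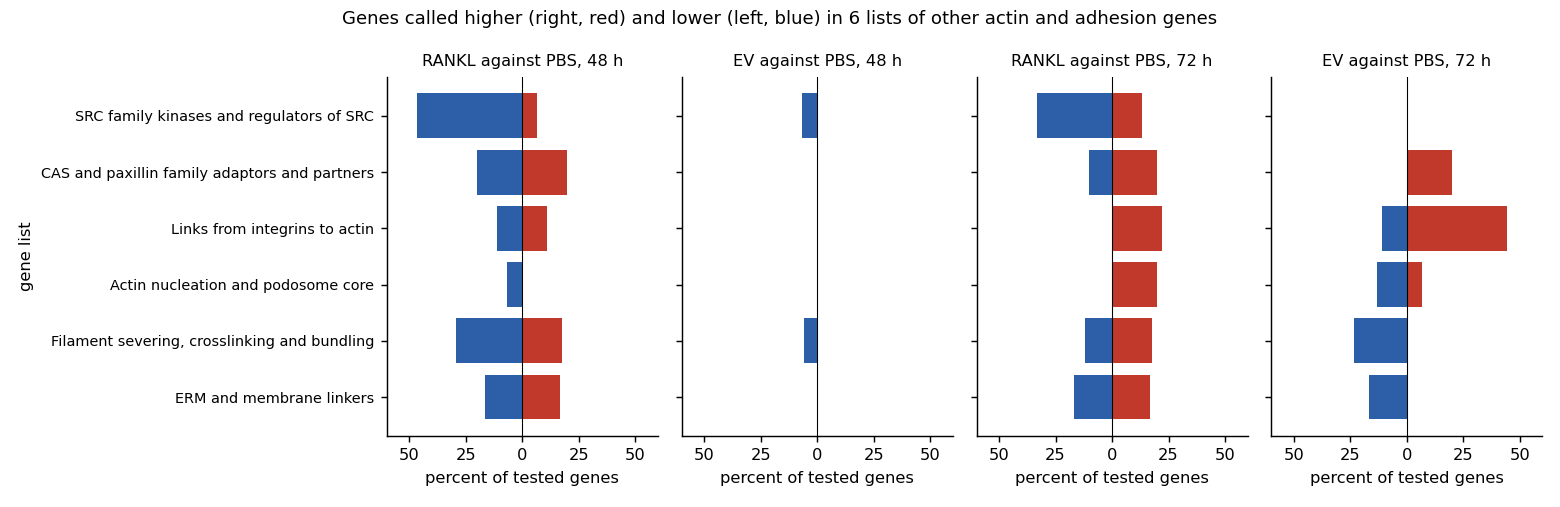
Percent of the tested genes of each of 6 lists called higher (red, right) or lower (blue, left) by limma at an adjusted p under 0.05, for RANKL and EV against PBS at both times. In the list of SRC family kinases and regulators 7 of 15 fell and 1 rose with RANKL at 48 h.

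When vesicles were added to RANKL, 1 of the 85 passed at 48 h, where 0.434% of all genes did, and 5 at 72 h, where 1.83% did. At 48 h it was a rise of Parvb, which encodes beta-parvin, an actin-binding partner of integrin-linked kinase, by 0.66 ± 0.12 (limma adjusted p = 0.0399). At 72 h 4 rose, which were Git1, Parvb, Tns3 and Actn1, and 1 fell, Fgr. Git1, Tns3, Actn1 and Fgr are named here because they made up that count and were not chosen beforehand by the naming rule for that comparison.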

How the data were processed

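RNA was measured by sequencing TruSeq mRNA libraries of RAW264.7 cells, per the labels' protocols. FastQC, HISAT2 and Partek were used, per the submitters' processing notes, which name the human builds GRCh38 and hg38 although the symbols are mouse. For the annotation, the counting and the mouse build, nothing is given in the sources used here. The values the authors deposited were read as log2(RPKM + 1), a unit inferred from the values alone. With base 2, 80.2% to 82.9% of low values of 2196 single-exon genes were within 0.05 of whole reads, against 55.5% to 61.5% with base e and 32.6% to 38.9% with base 10. Depth from these steps is fixed only up to a whole multiple, and the smallest that fitted was taken, a choice made after the ambiguity was seen.

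The column name of 1 library does not spell out RANKL, so it was assigned only to its group, EV+RANKL at 48 h, and is called replicate 2 because replicate 1 has its own column. That library was left out of the fit with the replicate number as a block. In R 4.3.3, limma 3.58.1 with a variance trend was fitted to 16 libraries and 8 group means, with Benjamini-Hochberg adjustment over 10365 genes, and was tested on simulated data. The planned count test was not used, because the values are not counts. Errors of changes are standard errors on the log2(RPKM + 1) scale. They come from a single spread per gene over all groups, so they are equal at both times. The median absolute difference between the 2 libraries of a group was 0.0774 to 0.0920 at 48 h and 0.114 to 0.182 at 72 h. The errors do not show this wider spread at 72 h. Libraries of a group are not said to come from separate cultures, so p-values measure the spread between these libraries, which may be technical. Alternatives were the filter, the pseudocount, quantile normalization, rescaling without mitochondrial genes, no variance trend, fits within a time or group pair, the replicate block and omission of each library.

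The members, the lists and the set of 5 libraries of 72 h were chosen with earlier results of these data known. The named genes are the members, the 3 genes of each pathway list with the smallest p for RANKL against PBS at 48 h, list genes called for EV+RANKL against RANKL at 48 h, and the 5 genes most like Src and Bcar3 over group means, without predicted genes. Some genes this rule names, and 1 of the 7 lists, are not reported here.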

Additional observations from a re-analysis of the deposited data

Results flagged for a closer look

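The effect of EV+RANKL over PBS differed between 48 h and 72 h for 3 of the 10 genes, tested as the difference of both effects in the limma fit. Vcl rose by 1.0 ± 0.20 more at 72 h than at 48 h (limma adjusted p = 0.021), Gsn by 1.43 ± 0.32 more (limma adjusted p = 0.0255) and Flnc by 0.87 ± 0.24 more (limma adjusted p = 0.0404). The EV+RANKL levels behind these values were 9.47 and 8.23 RPKM at 48 h against 19.5 and 18.4 RPKM at 72 h for Vcl, 114 and 91.8 against 247 and 224 RPKM for Gsn, and 1.81 and 1.88 against 5.34 and 4.29 RPKM for Flnc. Over 16 omissions of 1 library the call was kept in 11 for Vcl, 11 for Gsn and 5 for Flnc. The fit with the replicate block left out replicate 2 of EV+RANKL at 48 h, so that group had a lone library in it. The changes in that fit were 0.88 for Vcl, 1.23 for Gsn and 0.84 for Flnc. Omission of the same library without a block gave 0.91, 1.28 and 0.89 in the same order. The calls were lost in both fits, and the block and the omission cannot be told apart. Testing without the filter left Vcl alone. A pseudocount of 0.1 lost the call for Flnc (limma adjusted p = 0.1396). Both EV+RANKL libraries of 72 h are among the 5 with a ribosomal share of 10.6% to 11.0%, so that share and the treatment cannot be told apart here.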

How the results depend on the processing

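No change of the 10 genes reversed its sign where it was called, under any of the 8 settings or 16 omissions of 1 library. Counts of called genes outside 1.5 times those reported are given here, for each setting, and the cause was not tested. The share of all genes passing under each setting or omission is not reported here. A shift in these counts is therefore not set against all genes. Testing all genes above 0 in 2 libraries left 0 for EV+RANKL against RANKL at 48 h (3 reported), 2 for EV+RANKL against EV at 48 h (5), 2 for EV+RANKL against RANKL at 72 h (5), 2 for EV between the times (4), 1 for RANKL between the times (2) and 1 for the change over time of EV+RANKL against PBS (3). A minimum of 5 RPKM, which drops members, gave 3 for EV against PBS at 48 h (1). A pseudocount of 0.1 gave 2 there and 3 for EV+RANKL against RANKL at 72 h. Quantile normalization gave 1 for EV+RANKL against RANKL at 48 h and 5 for the change over time of EV+RANKL against PBS. Rescaling without mitochondrial genes gave 2 for EV against PBS at 48 h and 8 for EV+RANKL against RANKL at 72 h. Fits within a time or group pair gave 8 for RANKL against PBS at 48 h (4), 4 for EV against PBS at 48 h, 5 for EV+RANKL against RANKL at 48 h, 1 for EV against PBS at 72 h (6), 0 for EV+RANKL against RANKL at 72 h, 2 and 0 for EV and RANKL between the times, and 6 for the change over time of EV+RANKL against PBS. Fitting no variance trend moved no count by over 1.5 times.

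The sources used here do not say whether the replicate numbers pair libraries, and this was not tested. Same-numbered libraries of 7 groups had correlations of deviations of -0.039 to 0.529 over 21 pairs. Their median was 0.118, and 11 of them were over 0.1. The fit with the replicate block left out replicate 2 of EV+RANKL at 48 h, so that group had a lone library in it. For comparisons with that group, omission of this library without a block gave the same counts as those below. The block and the omission cannot be told apart there. With the replicate block the counts were 3 for EV against PBS at 48 h, 0 for EV+RANKL against RANKL at 48 h, 3 at 72 h, 4 for EV+RANKL between the times (7) and 0 for the change over time of EV+RANKL against PBS.

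Over omissions of 1 library, after which the lone library of a group is assumed to vary like the other groups, the counts at 48 h ranged from 2 to 5 for RANKL and 1 to 3 for EV against PBS, 0 to 5 for EV+RANKL against RANKL, 2 to 6 against EV and 5 to 6 against PBS. At 72 h they ranged from 5 to 7, 1 to 6, 0 to 9, 7 to 8 and 7 to 8 in the same order. The interaction gave 0 at 48 h and 0 to 1 at 72 h. Between the times they ranged from 0 to 0 for PBS, 0 to 7 for EV, 0 to 7 for RANKL and 4 to 7 for EV+RANKL. For the change of effect over time they ranged from 0 to 4 for RANKL and 0 to 0 for EV against PBS, and for EV+RANKL from 0 to 2 against RANKL, 0 to 1 against EV and 0 to 6 against PBS. Src below 1 RPKM and Flnc rest on the fewest reads, about 55.4 and 60.9 at the lowest.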
